A study of Homo sapiens with 30 samples.

Results

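The 6 steroid hormone receptor genes described here are PGR, ESR1, NR3C1, NR3C2, PGRMC1 and PGRMC2. They were listed by name, and the rule that picks them uses no measured value, although earlier results of these data were known when the list was made. They were found through their Ensembl identifiers among the 60554 genes counted in each library. The RNA-seq libraries came from T47D, an established human breast cancer cell line of luminal type, at passages 18 to 20. The 12 libraries formed 6 groups of 2. The hormone was the synthetic progestin R5020 at 10 nM, although sample titles call these libraries progesterone. Cells carrying a control siRNA (si-control, siControl below) or an siRNA against CEBPA (si-CEBPa, siCEBPA below) were untreated with the time label T0, or progestin-treated with the time label T360, which has no unit. These siRNA libraries came from cells with a short arrest of 4 hours in charcoal-stripped serum. Cells labelled ICRF were untreated or progestin-treated, and their titles give no siRNA, arrest or time. The labels do not explain ICRF, while the design of the series names inhibition of topoisomerase II alpha. Every untreated siRNA library was T0 and every treated one T360, so hormone and time label cannot be told apart there. There was also no library with hormone and neither siRNA nor ICRF.

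Steroid hormones enter cells and bind nuclear receptors, which then act as transcription factors at hormone response elements. PGR encodes the progesterone receptor, the receptor of R5020, and is itself a classical oestrogen-induced gene of luminal breast cancer cells. ESR1 encodes oestrogen receptor alpha, NR3C1 the glucocorticoid receptor and NR3C2 the mineralocorticoid receptor, and the latter pair shares much of its DNA recognition sequence with the progesterone receptor. PGRMC1 and PGRMC2 encode haem-binding membrane proteins that were named for their link to progesterone and are not nuclear receptors. The product of CEBPA, C/EBPα, is a leucine zipper transcription factor.

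Library totals ran from 57364785 to 148624099 counts, and siControl untreated replicate 2 was the deepest, with the next siRNA library at 70704799. Levels are CPM, library counts scaled to a common total with TMM factors. Changes are given on the log2 scale ± SE, from the quasi-likelihood test of edgeR, called at an adjusted p of 0.05. The labels do not say that replicates were separate cultures, so each p reflects only how far these libraries scatter, possibly for technical reasons. CEBPA, the siRNA target, stood at 47.7 and 54.4 CPM in siControl untreated, at 10.7 and 12.1 CPM in siCEBPA untreated, at 207 and 204 CPM in siControl progestin and at 57.5 and 62.2 CPM in siCEBPA progestin libraries. It was lower with the siRNA at both hormone states, but the treated siCEBPA libraries lay above the untreated siControl ones. All 10 luminal epithelial markers were at 1 CPM or more in every group, while none of the 4 endothelial or 6 blood cell markers was in any group. Of 8 basal and 7 fibroblast markers at most 3 and 2 were. Of the genes called in the siControl hormone comparison 49.97% were higher, against 33.9% with no scaling factors and 38.2% with upper quartile scaling, and in siCEBPA cells 51.3% were higher, against 33.3% and 36.9%. With no scaling factors the median log2 change over all genes was -0.19 in both, against -0.03. The share of higher calls also moved with no scaling factors for the siRNA without hormone (48.5% to 65.3%), for the siRNA with hormone (50.5% to 64.9%) and for the difference between ICRF and siControl responses (50.9% to 65.2%).

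On the build hg38, PGR lies on the minus strand of chromosome 11 from 101029624 to 101130524, and ESR1 on the plus strand of chromosome 6 from 151656691 to 152129619. NR3C1 lies on the minus strand of chromosome 5 from 143277931 to 143435512, NR3C2 on the minus strand of chromosome 4 from 148078762 to 148444698, and PGRMC2 on the same chromosome and strand from 128269237 to 128288829. PGRMC1 lies on the plus strand of chromosome X from 119236245 to 119244466. The annotated exons, merged over transcripts, cover 15404 bases of PGR, 13629 of ESR1, 9172 of NR3C1, 6607 of NR3C2, 1919 of PGRMC1 and 4626 of PGRMC2.

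RefSeq gives these genes 22 transcript starts, 3 for PGR, 6 for ESR1, 7 for NR3C1, 4 for NR3C2 and 1 each for the PGRMC genes. The 250 bases before each start were searched on both strands for the letters of 4 elements. They were TGTTCT (a hormone response half-site), GGTCA (an oestrogen response half-site), TTGCNNAA (a C/EBP site) and GGGCGG (a GC box, bound by Sp factors). The matches are shown because 4 of the genes fell together with progestin in siControl and siCEBPA cells, and gene counts do not tell which start was used. Sequences are from RefSeq, build GRCh38.p14, written along the gene's strand. Matches of the hormone half-site, the oestrogen half-site and the C/EBP site are in capitals, while GC box matches are left in lower case. For PGR, chr11:101129982-101130011 (minus strand) holds a C/EBP match whose first base is 187 bases before the outermost start, and chr11:101129227-101129256 (minus strand) holds an oestrogen half-site match 166 and 180 bases before the other starts. Short stretches of 30 bases are given where the annotation places exons in the window.
PGR, C/EBP match: taattcttaatTTGCAAAAcaaaacgtaat
PGR, oestrogen half-site match: caagggcaggagcTGACCagcgccgccctc
For ESR1, the window before the outermost start, chr6:151656422-151656671 (plus strand), holds the only TGTTCT among the 22 windows, 154 bases before the start.
ESR1, hormone half-site match: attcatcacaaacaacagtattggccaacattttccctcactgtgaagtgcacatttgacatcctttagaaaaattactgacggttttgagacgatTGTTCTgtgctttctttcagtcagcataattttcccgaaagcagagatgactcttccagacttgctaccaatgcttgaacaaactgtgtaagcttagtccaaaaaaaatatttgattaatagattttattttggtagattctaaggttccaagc
For NR3C1, the window chr5:143405356-143405605 (minus strand) holds a C/EBP match 228 bases before its start.
NR3C1, C/EBP match: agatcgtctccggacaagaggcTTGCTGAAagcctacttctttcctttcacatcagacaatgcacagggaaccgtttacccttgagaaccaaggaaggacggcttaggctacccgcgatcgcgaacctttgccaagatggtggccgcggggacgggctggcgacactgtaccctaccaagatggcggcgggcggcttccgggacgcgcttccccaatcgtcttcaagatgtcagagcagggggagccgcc
For NR3C2, the 2 oestrogen half-site matches lie in 1 window, at chr4:148442607-148442636 and chr4:148442516-148442545 (minus strand).
NR3C2, first oestrogen half-site match: taagaagcccgccTGACCcgtgcggcgtgg
NR3C2, second oestrogen half-site match: ttatctggacatgTGACCcgcttttaaaag

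In all, TGTTCT was in 1 of the 22 windows, GGTCA in 5, TTGCNNAA in 2 and GGGCGG in 16. Over 34943 windows of the same length before all RefSeq starts, 12.4% held TGTTCT, 32.6% GGTCA, 9.06% TTGCNNAA and 42.5% GGGCGG. Windows of neighbouring starts overlap, so the 22 are not independent. The remaining GGTCA matches were in 1 window of ESR1 and 1 of PGRMC2, and PGRMC1 had the GC box only.

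Compared per kilobase of exon, PGR had the highest level of the 4 nuclear receptors in every library, from 16.3 to 64.2 CPM per kb. ESR1 ran from 1.97 to 12.8, NR3C1 from 1.63 to 4.30 and NR3C2 from 0.223 to 1.08 CPM per kb. PGRMC1 (28.7 to 63.1 CPM per kb) and PGRMC2 (17.2 to 24.2 CPM per kb) had levels in the range of PGR. Ordered by group mean, PGR was highest in siControl untreated, then in ICRF untreated and siCEBPA untreated, and lowest in ICRF progestin libraries, with no overlap between neighbouring groups. ESR1 was highest in ICRF untreated and lowest in ICRF progestin, and the libraries of siCEBPA untreated and siControl untreated overlapped. NR3C1 ran from ICRF untreated down to siControl progestin with no overlap between neighbours. NR3C2 ran from siCEBPA untreated down to siControl progestin, and ICRF untreated overlapped siControl untreated. PGRMC1 was highest in both ICRF groups, and the siCEBPA groups, which overlapped, were lowest. PGRMC2 varied least, 1.32-fold between the highest and lowest group means, and 3 of its 5 neighbouring pairs overlapped. With no scaling factors this order held for only 2 of the 6 genes, NR3C1 and NR3C2, and siControl progestin rather than ICRF progestin was lowest for PGR. ICRF and siRNA libraries differ in siRNA and possibly arrest, so their levels are only set side by side.

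**Figure D1:**
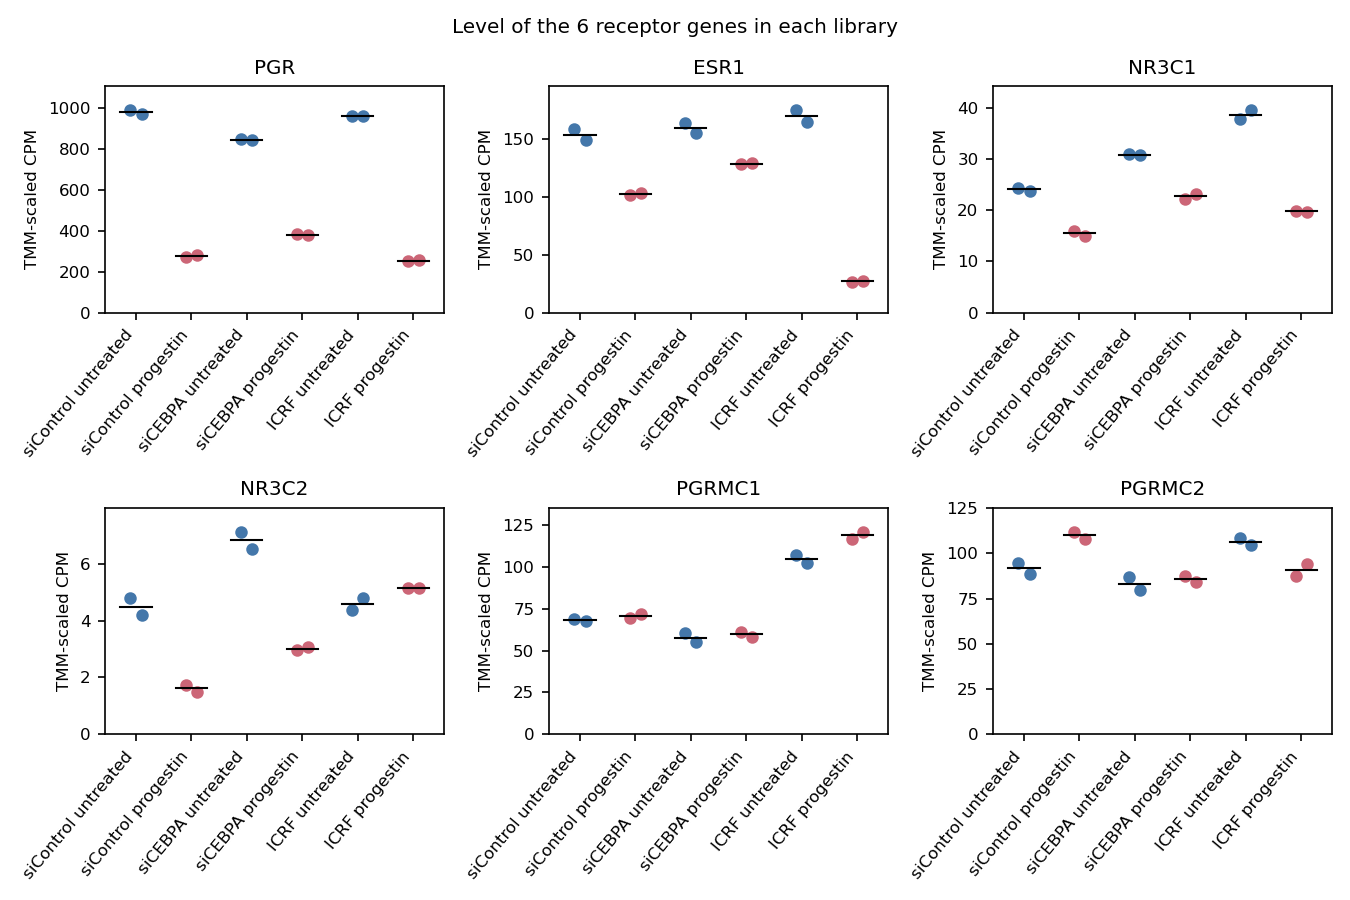
Level of each receptor gene in TMM-scaled CPM (vertical axes, each from 0) in the 2 libraries of each group. Blue points are untreated and red points progestin libraries, and the line is the group mean. PGR lies between 843 and 989 CPM in all untreated libraries and between 251 and 386 CPM in all progestin libraries.

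In siControl cells all 4 nuclear receptor genes were lower with progestin, PGRMC2 was higher and PGRMC1 did not pass the test. These 5 of 6 calls stand beside 58.5% of all 18351 genes tested, so a call by itself is common in this comparison. PGR stood at 989 and 973 CPM in untreated and at 271 and 280 CPM in progestin libraries. It fell to 27.9% of its untreated level (log2 -1.84 ± 0.04, adjusted p = 1.86e-15), and the groups were far apart. Only 2.83% of genes tested had a lower log2 change. In bulk RNA, fewer cells with a transcript and less of it per cell cannot be told apart, and gene counts do not separate the PR-A and PR-B forms.

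NR3C2 had the next largest fall, from 4.78 and 4.19 CPM to 1.75 and 1.47 CPM (log2 -1.47 ± 0.14, adjusted p = 1.49e-07). It is the least abundant of the genes, with 84 to 630 counts per library, and its groups did not overlap. NR3C1 stood at 24.3 and 23.8 CPM untreated and at 15.9 and 14.99 CPM with progestin (log2 -0.65 ± 0.07, adjusted p = 2.95e-07). ESR1 stood at 159 and 149 CPM untreated and at 102 and 104 CPM with progestin (log2 -0.59 ± 0.04, adjusted p = 1.02e-08). Both fell to about 65% of the untreated level, 63.7% for NR3C1 and 66.3% for ESR1. PGRMC2 stood at 94.7 and 88.6 CPM untreated and at 112 and 108 CPM with progestin (log2 0.25 ± 0.05, adjusted p = 0.000642). That rise was 0.10 with an adjusted p of 0.11 when no scaling factors were used and 0.14 with upper quartile scaling. PGRMC1 stood at 68.9 and 67.8 CPM untreated and at 69.7 and 71.9 CPM with progestin (log2 0.04 ± 0.05, 95% interval -0.08 to 0.15, adjusted p = 0.559). Its sign turned with no scaling factors (-0.12, adjusted p = 0.0657) and with upper quartile scaling (-0.07, adjusted p = 0.243).

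In siCEBPA cells the same 4 nuclear receptor genes fell with progestin, and neither PGRMC gene passed the test. These 4 calls of 6 stand beside 58.2% of all genes. PGR went from 849 and 843 CPM to 386 and 379 CPM, or 44.9% of its untreated level (log2 -1.15 ± 0.04, adjusted p = 2.91e-13). NR3C2 went from 7.12 and 6.52 to 2.95 and 3.07 CPM (log2 -1.19 ± 0.13, adjusted p = 5.72e-07). NR3C1 went from 30.9 and 30.8 to 22.1 and 23.2 CPM (log2 -0.45 ± 0.06, adjusted p = 1.49e-05). ESR1, with 163 and 155 CPM untreated and 128 and 129 CPM treated, changed least of the 4 (log2 -0.32 ± 0.04, adjusted p = 1.64e-05). Its fall was -0.48 with no scaling factors. For these 4 genes the treated and untreated libraries did not overlap. PGRMC1 (60.5 and 55.1 CPM untreated, 61.0 and 58.4 CPM treated) and PGRMC2 (87.0 and 79.5 CPM untreated, 87.5 and 84.2 CPM treated) overlapped between groups. Their log2 changes of 0.04 ± 0.05 (adjusted p = 0.552) and 0.04 ± 0.05 (adjusted p = 0.588) turned negative with no scaling factors, to -0.13 (adjusted p = 0.0499) and -0.13 (adjusted p = 0.0404).

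The difference between the hormone responses of siCEBPA and siControl cells was tested directly. It passed for 2 of the 6 genes, PGR and ESR1, beside 7.24% of all genes. The PGR response was weaker in siCEBPA cells by 0.69 ± 0.05 on the log2 scale (95% interval 0.58 to 0.80, adjusted p = 1.44e-06). This value lay between 0.66 and 0.71 over every alternative run. The ESR1 response was weaker by 0.28 ± 0.06 (adjusted p = 0.0125), and the call was lost without siControl progestin replicate 1 (adjusted p = 0.08), without siControl progestin replicate 2 (adjusted p = 0.0501) or without siCEBPA untreated replicate 2 (adjusted p = 0.0603). The same difference was 0.20 ± 0.09 for NR3C1 (adjusted p = 0.245), 0.29 ± 0.19 for NR3C2 (95% interval -0.12 to 0.69, adjusted p = 0.47), 0.00 ± 0.08 for PGRMC1 (adjusted p = 0.997) and -0.22 ± 0.07 for PGRMC2 (adjusted p = 0.103). The PGRMC2 difference passed without siCEBPA untreated replicate 2 (-0.28, adjusted p = 0.0452). CEBPA itself rose with hormone in both, by 1.99 ± 0.06 in siControl and 2.39 ± 0.07 in siCEBPA cells.

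With ICRF, progestin came with lower PGR, ESR1, NR3C1 and PGRMC2 and with higher PGRMC1, while NR3C2 did not pass. These 5 of 6 calls stand beside 61.4% of 18556 genes tested. ESR1 had the largest change of any of the 6 genes in any comparison, from 175 and 165 CPM to 26.9 and 27.2 CPM, or 15.8% of the untreated level (log2 -2.66 ± 0.04, adjusted p = 4.51e-40). Only 0.447% of genes had a lower log2 change, and the groups were far apart. PGR went from 961 and 961 CPM to 251 and 257 CPM (log2 -1.94 ± 0.03, adjusted p = 4.72e-39). NR3C1 went from 37.8 and 39.5 to 19.8 and 19.7 CPM (log2 -0.98 ± 0.06, adjusted p = 6.22e-20). Treated and untreated libraries stood apart for both. NR3C2 was 4.37 and 4.79 CPM untreated and 5.14 CPM in each treated library (log2 0.15 ± 0.11, 95% interval -0.07 to 0.37, adjusted p = 0.23). PGRMC1 rose from 107 and 103 to 117 and 121 CPM (log2 0.16 ± 0.04, adjusted p = 0.000249), and by 0.10 with upper quartile scaling. PGRMC2 fell from 108 and 104 to 87.7 and 94.0 CPM (log2 -0.24 ± 0.04, adjusted p = 1.07e-06).

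With ICRF, all luminal epithelial markers fell with progestin as ESR1 did, while in siControl and siCEBPA cells more of them fell than rose. All 10 were lower with progestin under ICRF (median log2 change -1.01). Their summed level went from 10065 to 10115 CPM in untreated libraries to 5162 to 5447 CPM in treated ones. In siControl cells the sum went from 8089 to 8653 CPM up to 9310 to 9951 CPM, with 2 markers higher and 5 lower (median -0.29). In siCEBPA cells 2 markers were higher and 6 lower (median -0.31). The sum is weighted to the most abundant markers, so it can rise while more markers fall. FOXA1, a pioneer factor that opens chromatin for oestrogen receptor alpha, was at 293 and 74.8 CPM in ICRF untreated and progestin cells (log2 -1.99 ± 0.04) and at 441 and 73.1 CPM in the siControl groups (-2.60 ± 0.05). SPDEF, a luminal transcription factor, was at 123 and 16.3 CPM in the ICRF groups (-2.93 ± 0.05). The part of these markers in the ESR1 result was not tested.

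The responses with ICRF and in siControl cells differed for 4 of the 6 genes, beside 48.9% of 19003 genes. The ESR1 fall was larger with ICRF by 2.07 on the log2 scale (difference -2.07 ± 0.06, adjusted p = 9.01e-16). For NR3C2 the difference was 1.63 ± 0.17 (adjusted p = 9.89e-08), with a fall in siControl cells and none called with ICRF. For PGRMC2 it was -0.49 ± 0.07 (adjusted p = 5.31e-06), a rise in siControl and a fall with ICRF. For NR3C1 it was -0.33 ± 0.08 (adjusted p = 0.00245), which became -0.18 (adjusted p = 0.0916) with no scaling factors. For PGR it was -0.09 ± 0.05 (95% interval -0.19 to 0.01, adjusted p = 0.123), and its sign turned when scaling factors were left out (0.06, adjusted p = 0.291). That PGR difference passed without ICRF progestin replicate 2 (-0.15, adjusted p = 0.0353). It also passed without siCEBPA untreated replicate 1 (-0.13, adjusted p = 0.0314), siCEBPA untreated replicate 2 (-0.13, adjusted p = 0.0321) or siCEBPA progestin replicate 2 (-0.13, adjusted p = 0.0315). For PGRMC1 it was 0.13 ± 0.07 (adjusted p = 0.119), and it passed with no scaling factors (0.28, adjusted p = 0.0012) and with upper quartile scaling (0.17, adjusted p = 0.0386). The ICRF and siRNA libraries differ in siRNA, time label and possibly arrest as well as in ICRF, and these cannot be told apart.

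**Figure D2:**
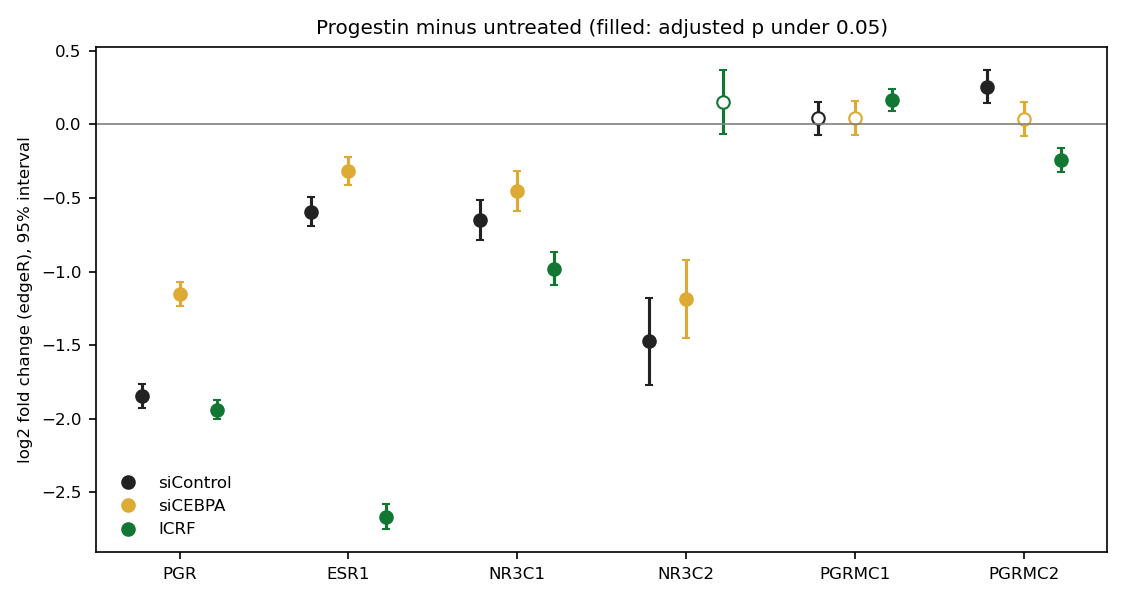
Log2 fold change of each receptor gene, progestin minus untreated (vertical axis), in siControl, siCEBPA and ICRF cells, with 95% intervals computed from edgeR's test. Filled points passed an adjusted p of 0.05 and open points did not. ESR1 with ICRF (-2.66) is the lowest point, and the open points are NR3C2 with ICRF, PGRMC1 in siControl and siCEBPA, and PGRMC2 in siCEBPA cells.

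The effect of the CEBPA siRNA was compared at each hormone state, using the siRNA libraries already given. Without hormone, NR3C1 and NR3C2 were higher and PGR and PGRMC1 lower, 4 of 6 beside 46.6% of all genes. NR3C2 was higher by 0.63 ± 0.12 (adjusted p = 0.000354) and NR3C1 by 0.37 ± 0.06 (adjusted p = 0.000157). PGR was lower, at 86.9% of its siControl level (log2 -0.20 ± 0.04, adjusted p = 0.000312), and PGRMC1 was lower (-0.23 ± 0.05, adjusted p = 0.00233). Without scaling factors these falls were -0.11 and -0.13, with adjusted p of 0.0254 and 0.0456. The libraries of siCEBPA and siControl did not overlap for these 4 genes. ESR1 overlapped and did not pass (0.06 ± 0.04, adjusted p = 0.265), though it did with no scaling factors (0.16, adjusted p = 0.00765) and with upper quartile scaling (0.11, adjusted p = 0.0493). PGRMC2 was -0.13 ± 0.05 (adjusted p = 0.0614), and passed in the fit of all 12 libraries (-0.14, adjusted p = 0.0299), with no low-count filter (-0.16, adjusted p = 0.00885) and without siCEBPA untreated replicate 1 (-0.20, adjusted p = 0.0148) or siControl untreated replicate 2 (-0.18, adjusted p = 0.0323). It also passed without siCEBPA progestin replicate 1 or 2 (-0.13 in each, adjusted p = 0.0434 and 0.0446).

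With hormone, all 4 nuclear receptor genes were higher in siCEBPA than in siControl cells and both PGRMC genes were lower, 6 of 6 beside 44.6% of all genes. PGR was 1.40-fold higher (log2 0.49 ± 0.04, adjusted p = 4.60e-08), the opposite of its direction without hormone. NR3C2 was higher by 0.91 ± 0.15 (adjusted p = 0.000116), NR3C1 by 0.57 ± 0.07 (adjusted p = 3.87e-06) and ESR1 by 0.34 ± 0.05 (adjusted p = 1.51e-05). PGRMC2 was lower (log2 -0.34 ± 0.05, adjusted p = 6.99e-05), as was PGRMC1 (-0.23 ± 0.05, adjusted p = 0.00266). In none of the 6 did the libraries of the groups overlap. With no scaling factors PGRMC1 was at -0.14 (adjusted p = 0.0352).

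**Figure D3:**
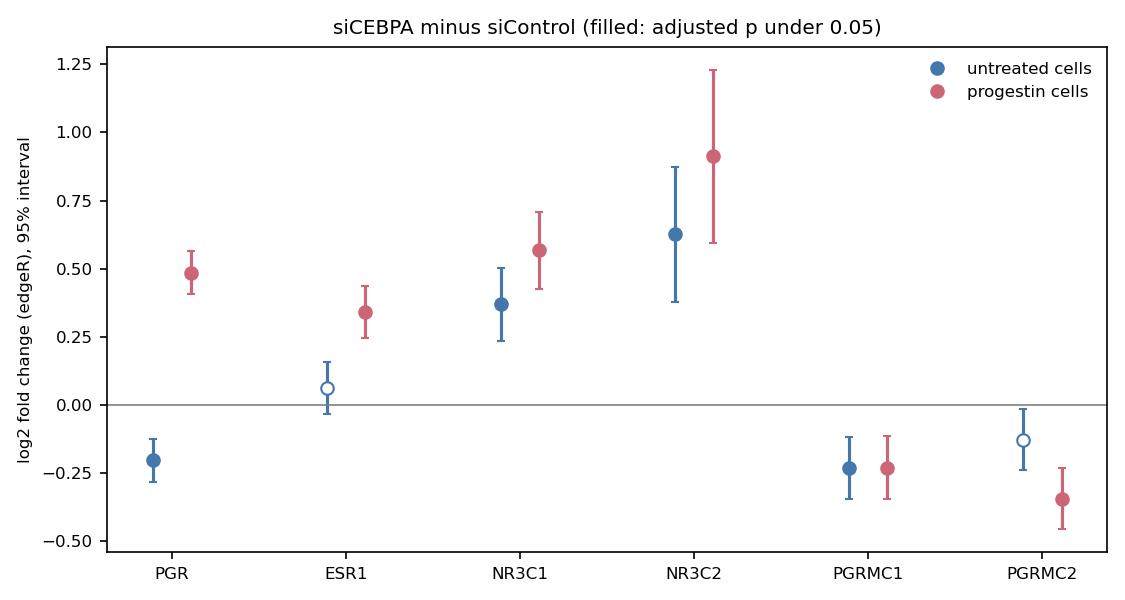
Log2 fold change of each receptor gene, siCEBPA minus siControl (vertical axis), in untreated (blue) and progestin (red) cells, with 95% intervals computed from edgeR's test. Filled points passed an adjusted p of 0.05. PGR lies below 0 without hormone (-0.20) and above 0 with it (0.49).

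The summed level of the 4 nuclear receptor genes per kilobase went from 78.3 ± 1.36 (SD, n = 2) to 27.4 ± 0.379 CPM per kb with progestin in siControl, from 71.0 ± 0.783 to 37.2 ± 0.150 in siCEBPA and from 79.7 ± 0.335 to 21.4 ± 0.304 in ICRF cells. Within that sum PGR held 81.0% and 81.7% in the siControl untreated and 65.0% and 65.8% in the siControl progestin libraries, while ESR1 went from 14.7% and 14.1% to 27.6% and 27.5%. The siCEBPA libraries had the same direction, with PGR at 77.0% and 77.7% untreated and 67.1% and 66.3% treated. Under ICRF the PGR share was 78.0% and 78.5% untreated and 76.8% and 77.2% treated, while the ESR1 share went from 16.0% and 15.2% to 9.31% and 9.25%. There the NR3C1 share went from 5.15% and 5.42% to 10.2% and 9.95%, and the NR3C2 share from 0.83% and 0.91% to 3.68% and 3.60%. Of the 2 PGRMC genes, PGRMC1 held 60.0% to 64.8% of their summed level per kilobase in the siRNA libraries and 70.3% to 76.3% in the ICRF libraries. Scaling factors do not enter these shares. With 2 libraries against 2 no exact test can reach 0.05, so they are given without one.

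**Figure D4:**
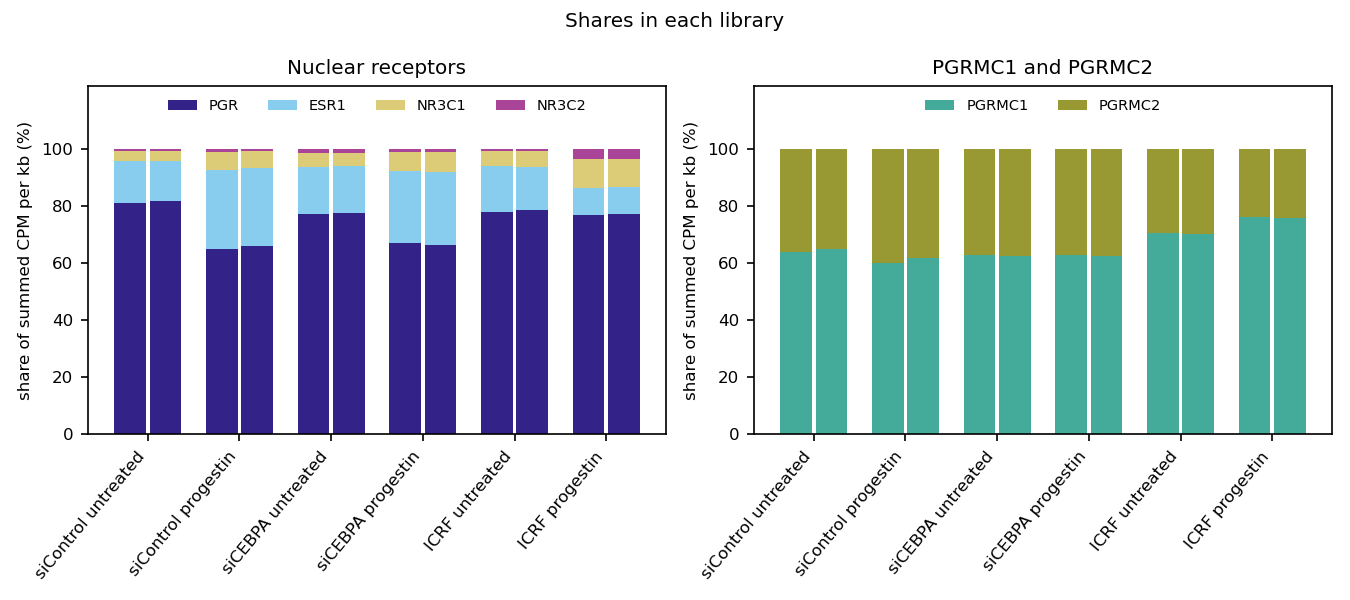
Share of each gene in the summed CPM per kb (vertical axis, %) in every library, for the 4 nuclear receptor genes (left) and for PGRMC1 and PGRMC2 (right), with 2 bars per group. PGR holds 65.0% to 81.7% in every library, and the ESR1 part is widest in the siControl progestin libraries.

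Some genes overlap these loci on the other strand, and counting used the strand. PGR-AS1, an antisense RNA at the 5′ end of PGR, had 2.66 and 2.94 CPM in siControl untreated and 2.04 and 1.74 CPM in siControl progestin libraries. It fell with progestin in siControl cells (log2 -0.59 ± 0.17, adjusted p = 0.0063), though not without siControl untreated replicate 2 or siControl progestin replicate 2 (-0.50 and -0.47), and with ICRF (-0.75 ± 0.19, adjusted p = 0.000672). In siCEBPA cells its change was -0.41 ± 0.18 (adjusted p = 0.0583). PGR, on the other strand, had 989 and 973 CPM in siControl untreated libraries. Whether some PGR reads were counted for PGR-AS1 was not tested. SYNE1, which overlaps the 3′ end of ESR1 and encodes nesprin-1, rose with progestin in siControl cells from 5.09 and 3.93 to 10.9 and 11.4 CPM (log2 1.32 ± 0.12, adjusted p = 9.02e-08), opposite to ESR1, and it rose in siCEBPA cells (1.04 ± 0.12, adjusted p = 1.21e-06). With ICRF, where ESR1 fell most, the SYNE1 libraries overlapped (8.19 and 7.05 CPM untreated, 6.95 and 7.46 CPM with progestin) and the change was -0.10 ± 0.09 (adjusted p = 0.378). The ribosomal pseudogene RPL7P21 within NR3C1 reached at most 1.07 CPM.

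Counts in lists of related genes are read against the share of all genes called in each direction. With progestin 29.2% of all genes rose and 29.3% fell in siControl, 29.9% and 28.4% in siCEBPA, and 31.3% and 30% in ICRF cells. After CEBPA siRNA without hormone 22.6% were higher and 24.0% lower. The counts of coactivators and corepressors and of other nuclear receptors in siControl cells were near these shares.

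Of the 5 other members of the steroid receptor family (NR3), 4 passed the low-count filter in siControl cells, where 2 rose and 2 fell. ESRRA, which encodes the orphan receptor ERRα, rose with progestin in siControl, siCEBPA and ICRF cells, from 38.6 ± 1.42 to 81.5 ± 2.30 CPM in siControl (1.06 ± 0.07, adjusted p = 1.58e-09), by 1.46 ± 0.07 in siCEBPA and by 0.46 ± 0.06 with ICRF. ESR2, the gene of oestrogen receptor beta, ran from 0.120 to 1.37 CPM over the 12 libraries, and ESRRB from 0.0144 to 0.192 CPM.

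Among 39 other nuclear receptor genes 29 were tested, and 10 rose and 10 fell in siControl, 12 and 12 in siCEBPA and 12 and 11 in ICRF cells. Their median log2 changes were -0.0014, -0.10 and -0.08, beside medians of -0.03, -0.03 and -0.01 over all genes tested. VDR, the vitamin D receptor gene, rose from 102 to 454 CPM in siControl (2.15 ± 0.04), from 90.0 to 542 in siCEBPA (2.58 ± 0.04) and from 94.6 to 438 with ICRF (2.20 ± 0.04). In siControl cells THRB, a thyroid hormone receptor gene, rose from 16.5 to 72.8 CPM (2.12 ± 0.06), PPARD rose from 18.8 to 58.7 CPM (1.63 ± 0.06), and NR1D2, a circadian repressor, fell from 93.5 to 27.4 CPM (-1.78 ± 0.06). So nuclear receptor genes outside the 6 went both ways, with rises as large as the fall of PGR.

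Among 8 other membrane steroid receptor genes and relatives of the PGRMC family 7 were tested. In siControl cells PAQR5, which encodes a membrane progestin receptor, rose from 0.93 to 2.45 CPM (1.37 ± 0.15), while PAQR6 (12.6 to 5.50 CPM, -1.22 ± 0.12) and PAQR7 (12.6 to 9.0 CPM, -0.50 ± 0.09) of the same family fell. Of 8 PGRMC partner and sterol genes 4 rose and 1 fell in siControl, 5 and 2 in siCEBPA, and 2 and 4 in ICRF cells. Unscaled, the siCEBPA counts were 2 and 3. CYP51A1, a sterol demethylase, went from 6.88 to 13.9 CPM in siControl (0.996 ± 0.09). The difference between the ICRF and siControl responses passed for all 8, with 7 negative. Over all genes 24.9% were higher and 24.0% lower in that comparison. With no scaling factors 65.2% of all its calls were higher, against 50.9%.

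Chaperones that fold steroid receptors rose in siControl cells, 15 of 18 with none lower (median 0.27), and likewise 15 of 18 in siCEBPA cells (median 0.35). Unscaled, 11 rose and 2 fell in siControl and 13 rose and 3 fell in siCEBPA, with medians of 0.11 and 0.18. With ICRF 8 rose and 6 fell (median 0.05, or -0.02 with upper quartile scaling). FKBP5, a co-chaperone gene induced by progestins, went from 81.4 to 513 CPM in siControl (2.65 ± 0.04) and from 114 to 278 CPM with ICRF (1.27 ± 0.03), and DNAJB1 from 176 to 459 CPM in siControl (1.37 ± 0.04). HSPA8, the constitutive HSP70, went from 2072 to 6281 CPM with ICRF (1.58 ± 0.03). Of 21 coactivator and corepressor genes 8 rose and 5 fell in siControl (4 and 11 with no scaling factors), and 6 rose and 12 fell with ICRF. After CEBPA siRNA without hormone 3 of these 21 were higher and 12 lower (4 and 7 with no scaling factors). LCOR, a ligand-dependent corepressor, was higher (1.24 ± 0.05), and the arginine methyltransferase gene PRMT1 was lower (-0.81 ± 0.05).

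Of 18 target genes that PR, GR and MR share, 15 rose and 1 fell in siControl (median 2.01), 16 and 1 in siCEBPA (1.98) and 15 and 1 in ICRF cells (1.30), beside medians of -0.03, -0.03 and -0.01 over all genes. FKBP5 and HSD11B2 are among these 18 and are also counted with the chaperones and the steroid-metabolising enzymes, respectively. TSC22D3, the gene of the glucocorticoid-induced protein GILZ, went from 38.8 to 636 CPM in siControl (4.02 ± 0.05) and from 28.8 to 442 CPM in siCEBPA cells (3.93 ± 0.06), so target genes were higher in the same libraries in which the receptor genes were lower. Of 20 steroid-metabolising enzyme genes 16 were tested, and 8 rose and 1 fell in siControl (6 and 4 with no scaling factors). HSD11B2, which inactivates cortisol, went from 3.92 to 28.9 CPM (2.88 ± 0.12) and SRD5A1, a steroid 5-alpha-reductase, from 15.3 to 53.4 CPM (1.79 ± 0.07). Oestrogen receptor targets, of which FKBP4, NRIP1 and RARA are also counted in other lists, went both ways in siControl cells. There 7 of 23 were higher and 10 lower (median -0.11). With ICRF 5 of the 22 targets tested were higher and 16 lower (median -0.55), and a link to the ESR1 fall there was not tested. STC2 went from 622 to 100.8 CPM there (-2.64 ± 0.04) and from 1192 to 394 CPM in siControl (-1.61 ± 0.05). CXCL12 went from 53.3 to 11.7 CPM with ICRF (-2.20 ± 0.06) and from 248 to 57.7 CPM in siControl (-2.12 ± 0.05). After CEBPA siRNA without hormone 8 of 23 oestrogen receptor targets were higher and 10 lower (median -0.10). Among them TFF1 was lower (-2.41 ± 0.12) and IGFBP4 higher (0.95 ± 0.05).

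**Figure D5:**
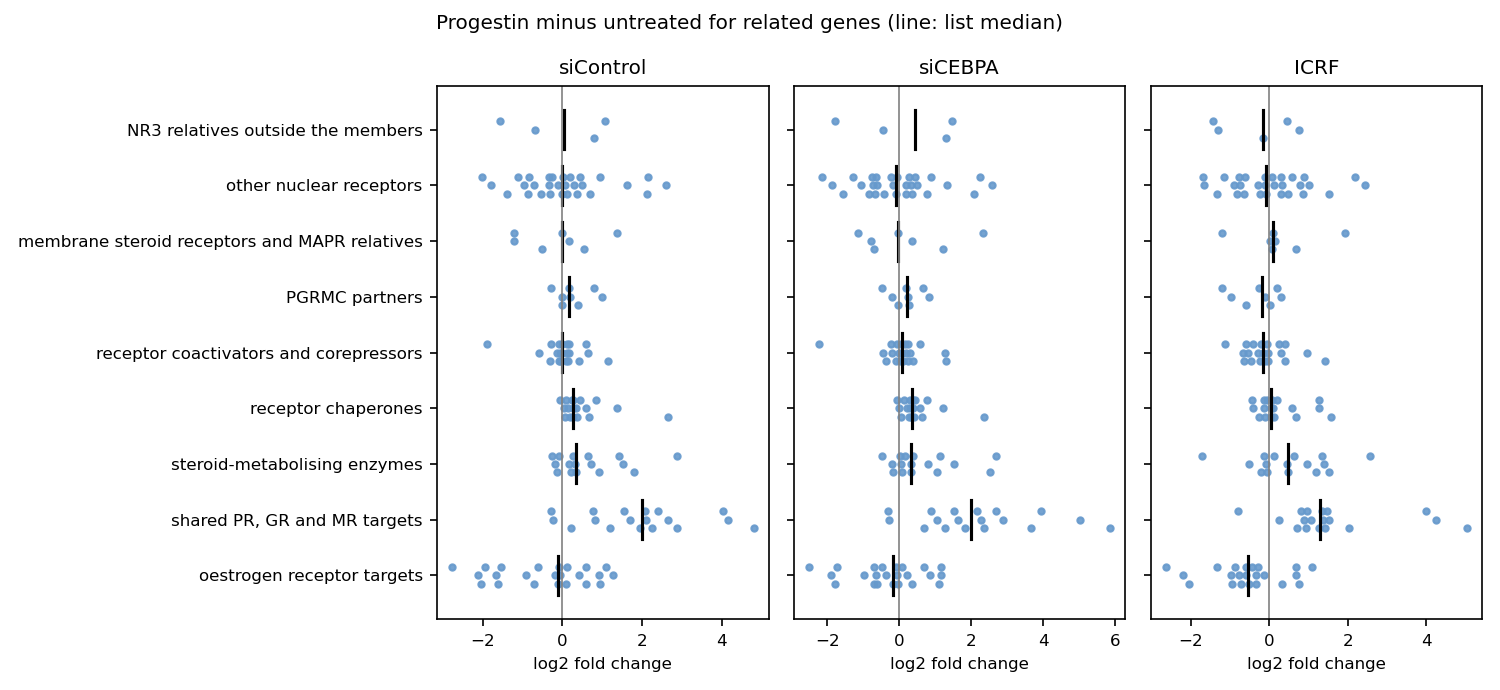
Log2 fold change, progestin minus untreated (horizontal axis), of every tested gene of 9 lists in siControl, siCEBPA and ICRF cells. Points are genes and black lines list medians. The shared PR, GR and MR targets have medians of 2.01, 1.98 and 1.30, while other nuclear receptors lie on both sides of 0.

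The genes most like each receptor gene were sought by Pearson correlation of log2(CPM + 1) over the 12 libraries among the 10706 named genes averaging 5 CPM or more. The libraries share groups, so these are descriptions. PGR was most like PREX1 (r = 0.990, 110 to 466 CPM), KRT80 (0.990) and EHF (0.990). ESR1 was most like ARHGEF19 (0.988), SPDEF (0.984, 15.9 to 157 CPM) and TJP3 (0.983). NR3C1 was most like CREB3L4 (0.989), KIF24 (0.984) and PPP1R13L (0.982), and NR3C2 was most like GLCCI1 (0.982), RBM5 (0.979) and ZNF518A (0.977). PGRMC1 was most like CNIH1 (0.995), BLOC1S2 (0.994) and COMMD6 (0.994), and PGRMC2 was most like CNBP (0.944), RAP1GDS1 (0.941) and HDGF (0.939). Among the receptor genes themselves the highest values were 0.82 for PGR with NR3C1 and 0.75 for PGR with ESR1, and ESR1 with NR3C2 had -0.02.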

How the data were processed

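The deposited files hold raw counts per gene. Per the file headers, they were made with featureCounts 1.5.1 with strand-specific counting, on the GENCODE 24 annotation of hg38. STAR and Trimmomatic are named in the submitters' processing notes with no role. The remaining samples of the series, from ChIP-seq, were not analysed here. Symbols were matched to 56558 of 60554 genes. Genes were filtered with edgeR 4.0.16 (R 4.3.3) on low counts, scaled by TMM and tested by its quasi-likelihood test with Benjamini-Hochberg adjustment over all genes tested. The 8 siRNA libraries were fitted together (18351 genes), the 4 ICRF libraries alone (18556 genes), and all 12 for the difference with ICRF (19003 genes). Replicate numbers were not used as a block. Depth ran from 57364785 to 148624099 counts. Alternatives were DESeq2 1.42.0, other scalings, no filter, 1 fit of all libraries, the replicate block and leaving out each library. List genes were named by p, the first 4 of each list in siControl and the first 2 elsewhere. The script was tested on simulated data. The genes and lists were chosen with earlier results of these data known. Some genes that this rule names are not reported here.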

Additional observations from a re-analysis of the deposited data

Results flagged for a closer look

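The hormone responses differed between cells for several of the genes, by edgeR's test of the difference itself. Between siCEBPA and siControl cells the log2 difference was 0.69 for PGR (adjusted p = 1.44e-06) and 0.28 for ESR1 (adjusted p = 0.0125), both weaker falls in siCEBPA cells. Between ICRF and siControl cells it was -2.07 for ESR1 (adjusted p = 9.01e-16), -0.33 for NR3C1 (adjusted p = 0.00245), 1.63 for NR3C2 (adjusted p = 9.89e-08) and -0.49 for PGRMC2 (adjusted p = 5.31e-06). Both sets share the siControl libraries.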

How the results depend on the processing

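Of 42 results, 6 genes in 7 comparisons, 32 stayed on their side of the threshold under every alternative run. Among those 32 the sign still turned, uncalled, for PGRMC1 in its siControl hormone response (to -0.12) and in its difference between siCEBPA and siControl (-0.06 to 0.08). With no scaling factors the hormone response in siCEBPA cells turned to -0.13 (adjusted p = 0.0499) for PGRMC1 and -0.13 (adjusted p = 0.0404) for PGRMC2. The PGRMC2 response in siControl cells became 0.10 and the NR3C1 difference with ICRF -0.18, neither called. ESR1 after siRNA without hormone (0.16) and the PGRMC1 difference with ICRF (0.28) became called, as they did with upper quartile scaling (0.11 and 0.17), and the order of levels held for 2 of 6 genes. PGRMC2 after siRNA without hormone was called with no low-count filter (-0.16) and in 1 fit of all libraries (-0.14). Replicate numbers were not taken as pairing the libraries, because not every correlation of same-numbered deviations was above 0.1. Among the siRNA groups the correlations were 0.40, 0.52 and 0.50 for the 3 pairs without siControl progestin, and 0.07, -0.05 and 0.03 for the 3 pairs with it. The lowest with an ICRF group was -0.39. With the replicate block PGRMC2 was called after siRNA without hormone (-0.13) and for the difference between siCEBPA and siControl (-0.22), and that difference was called for 2271 genes rather than 1329. Leaving out 1 library gave ranges of 0.24 to 0.32 for the ESR1 difference between siCEBPA and siControl, -0.28 to -0.14 for that of PGRMC2, -0.20 to -0.066 for PGRMC2 after siRNA without hormone and -0.15 to -0.064 for the PGR difference with ICRF. That PGR difference was 0.06, not called, with no scaling factors. The number of receptor genes called for the difference between siCEBPA and siControl was 3 with the replicate block and 1 to 2 with 1 library left out. Without siCEBPA untreated replicate 2 PGR and PGRMC2 were called and ESR1 was not. Over all genes the number was 692 without siControl progestin replicate 1 and 779 without replicate 2. With no low-count filter it was 1785. The cause of these changes was not tested. With 2 libraries a group, NR3C2, with 84 to 630 counts, had the widest intervals.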
